A study of Homo sapiens with 6 samples.

Results

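The NR4A receptors NR4A1, NR4A2 and NR4A3 are a family of orphan nuclear receptors, and all 3 of its genes were found by name among the 58735 genes of the count table. Each of the 3 passed the filter on low counts, as did 15754 genes in all. The family was chosen by measured values of the comparison given here, since NR4A1 was already known to be higher in the IL17D libraries, so the fold changes of its members are a description with their errors and carry no test. RNA was sequenced from A549, an established human lung adenocarcinoma cell line, grown in RPMI1640 medium with 10% FBS. The 3 IL17D libraries came from cells that carried a lentiviral vector with the IL17D reading frame, and the 3 control libraries from cells with the empty vector. The vector places its insert under the human PGK promoter, followed by an IRES and GFP, so expression was constitutive and not induced at a set time. The labels give replicate numbers but not whether replicates were separate transductions or separate cultures, so the errors cover the spread between libraries, which may be technical.

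In their natural setting the NR4A genes behave as immediate early genes. Growth factors, cytokines, calcium and cyclic AMP switch them on within the hour through CREB, MEF2 and serum response factor bound near their start sites, and their mRNAs are short-lived. The proteins have a ligand-binding domain whose pocket is filled by side chains, so their activity is thought to follow their amount and modification more than any ligand. They bind the NBRE, a short DNA element, as monomers, and NR4A1 and NR4A2 can also pair with the retinoid X receptors. A549 cells lack functional STK11, a kinase that activates the SIK kinases, which in turn hold the CREB coactivators of the CRTC family in the cytoplasm.

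The members are most alike in the zinc finger region through which they bind DNA. The 90-base coding stretch with the highest identity among all 3 genes is printed below from the GENCODE release 29 transcripts, because it shows how close the genes are to one another where reads could be confused. It lies in coding exons and spans an intron in each gene, at chr12:52055130-52056044 on the plus strand for NR4A1, chr2:156328519-156329397 on the minus strand for NR4A2 and chr9:99828919-99832703 on the plus strand for NR4A3 (GRCh38). Capitals mark the positions at which the genes are not all identical.
NR4A1: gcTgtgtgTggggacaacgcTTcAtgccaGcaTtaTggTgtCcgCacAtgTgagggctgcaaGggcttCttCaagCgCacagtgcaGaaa
NR4A2: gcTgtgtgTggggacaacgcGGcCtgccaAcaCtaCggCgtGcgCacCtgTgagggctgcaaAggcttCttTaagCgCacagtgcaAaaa
NR4A3: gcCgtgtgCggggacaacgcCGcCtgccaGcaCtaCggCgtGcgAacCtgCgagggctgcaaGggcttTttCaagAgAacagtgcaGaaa
Of the 90 bases, 71 were the same in all 3 genes. NR4A1 and NR4A2 shared 86.7% of them, NR4A2 and NR4A3 also 86.7%, and NR4A1 and NR4A3 83.3%. Even so, no stretch of 31 bases in the transcripts of any member occurred in another member, so reads of that length that match perfectly can be assigned within the family.

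The overexpressed gene separated the groups. IL17D had 18 to 34 counts in the control libraries and 26772 to 32155 counts in the IL17D libraries. The libraries held 14319398 to 16521021 counts on genes. Epithelial keratins were abundant, with KRT8 at 7648 CPM (a gene's counts scaled to the same library total in each sample) and KRT18 at 3591 CPM in control cells, while EPCAM was low at 1.05 CPM. All 4 epithelial markers had lower means in IL17D cells, and the adhesion gene CDH1 passed the test, at 43.4 CPM (SD 2.65) in control and 35.7 CPM (SD 3.32) in IL17D cells (adjusted p = 0.0306 in edgeR). Its part in the values of the NR4A genes was not tested. In RNA from bulk cultures, more cells expressing a gene and more RNA per cell cannot be told apart. Fixed markers of other cell types were near 0. The summed CPM per library of the markers in each list was at most 1.22 for 4 leukocyte markers, 0.608 for 3 endothelial markers and 0.308 for 3 fibroblast markers, and the defining leukocyte markers PTPRC and CD3E had no count.

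NR4A1 was the member with the most reads and the smallest spread between libraries. NR4A1 (ENSG00000123358, chr12:52022832-52059507, plus strand) encodes the receptor also called Nur77. In the control libraries it had 662, 569 and 655 counts, equal to 40.7, 39.3 and 40.7 CPM. In the IL17D libraries it had 918, 888 and 784 counts, equal to 55.8, 54.0 and 54.9 CPM. The groups did not overlap, and the lowest IL17D library lay 32.6% above the highest control library. The mean moved from 40.3 CPM (SD 0.806) to 54.9 CPM (SD 0.899), a fitted log2 fold change (log2FC) of 0.45 with a standard error of 0.061, or 1.36-fold. Among all tested genes, 6.7% had a larger log2FC in size. The coefficient of variation between replicates was 2.0% in control and 1.64% in IL17D cells, less than the 3.30% to 4.19% that counting error alone gives for these counts.

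NR4A3 had the largest fold change of the family. NR4A3 (ENSG00000119508, chr9:99821855-99866891, plus strand) encodes the receptor also called NOR1. Its counts were 109, 114 and 128 in the control libraries, or 6.71, 7.88 and 7.96 CPM. They were 175, 194 and 156 in the IL17D libraries, or 10.6, 11.8 and 10.9 CPM. Again the groups did not overlap, with a gap of 33.7% between the highest control and the lowest IL17D library. From a mean of 7.52 CPM (SD 0.701) the gene reached 11.1 CPM (SD 0.603), a log2FC of 0.57 with a standard error of 0.13, or 1.48-fold. A larger change in size was found for 3.89% of all tested genes.

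NR4A2 was higher on average, but its groups overlapped. NR4A2 (ENSG00000153234, chr2:156324432-156342348, minus strand) encodes the receptor also called Nurr1. The control libraries had 121, 131 and 109 counts, or 7.45, 9.06 and 6.78 CPM. The IL17D libraries had 137, 181 and 161 counts, or 8.33, 11.01 and 11.3 CPM. Control replicate 2 lay above IL17D replicate 1, so 2 of the 3 IL17D libraries lay above all controls. The group means were 7.76 CPM (SD 1.17) and 10.2 CPM (SD 1.63), with a log2FC of 0.40 and a standard error of 0.14. Its coefficients of variation, 15.1% and 15.99%, were above the counting error of 7.43% to 9.58%.

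The groups therefore did not overlap for 2 of the 3 members, both higher in IL17D cells, where 7.48% of all tested genes were higher and 8.31% lower without overlap. Nothing is read from that count, since the same contrast chose the family. The distance between the members' fold changes was not tested. NR4A1 made up 69.9% to 74.2% of the family's summed CPM in control libraries and 70.3% to 74.6% in IL17D libraries, NR4A2 12.2% to 16.1% and 11.1% to 14.6%, and NR4A3 12.2% to 14.3% and 14.2% to 15.4%. Each of these pairs of ranges overlapped. The summed family level was 54.9, 56.3 and 55.5 CPM in control libraries and 74.8, 76.8 and 77.2 CPM in IL17D libraries, 1.37-fold higher on average.

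**Figure D1:**
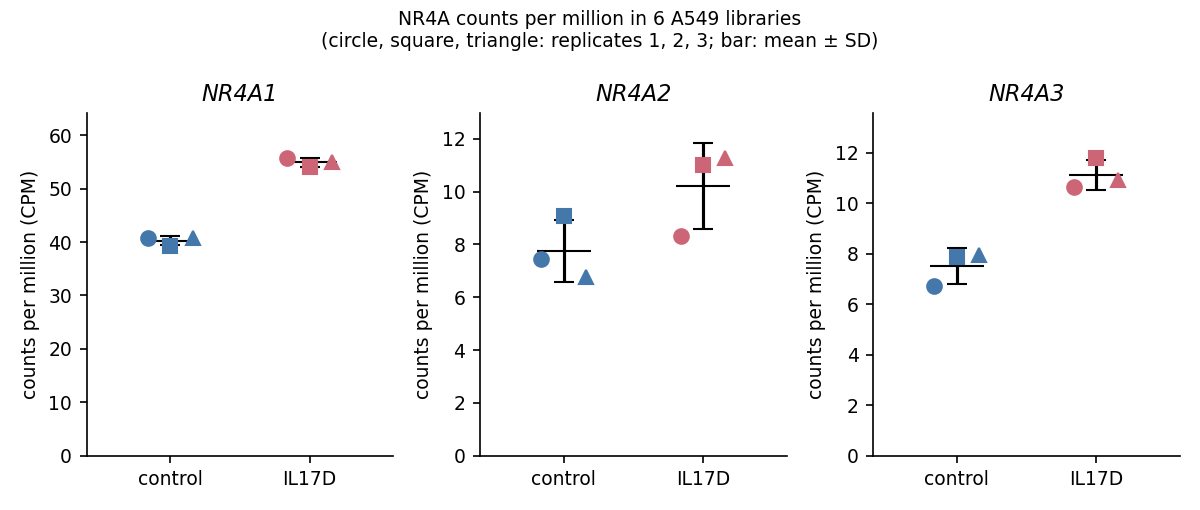
Level in CPM (vertical axis, from 0) of NR4A1, NR4A2 and NR4A3 in each of 6 libraries; symbols mark replicates 1, 2 and 3, and black bars the mean ± SD of 3 libraries. NR4A1 and NR4A3 do not overlap between groups, while for NR4A2 control replicate 2 (9.06 CPM) lies above IL17D replicate 1 (8.33 CPM).

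To compare the members with one another, their CPM were divided by the gene length in kilobases given in the table (RPKM). NR4A1 ranged from 5.39 to 7.65 RPKM over the 6 libraries, NR4A2 from 1.71 to 2.84 RPKM and NR4A3 from 1.06 to 1.87 RPKM. NR4A1 was above NR4A2 in 6 of 6 libraries. NR4A2 was above NR4A3 in 6 of 6 libraries per kilobase, but in 3 of 6 without division by length, and their ranges over all libraries overlapped on both scales. The gene lengths (7295, 3967 and 6314 bases for NR4A1, NR4A2 and NR4A3) are the summed exons of all transcripts, and a gene with many alternative exons is understated by them. An alternative chosen after seeing the data took the median length of the coding transcripts in place of the gene length. With it NR4A2 was again above NR4A3 in 6 of 6 libraries. Those medians, 1653 bases for NR4A2 and 4388 for NR4A3, lie further apart than the CPM of these genes in any library. The order of NR4A2 and NR4A3 per kilobase therefore rests on the lengths used. NR4A1 had 22 transcripts in GENCODE release 29, NR4A2 10 and NR4A3 4. Among 37 tested nuclear receptor genes ordered by mean RPKM, NR4A1 stood at place 12, NR4A2 at 24 and NR4A3 at 26.

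1 annotated gene overlaps NR4A1 on the opposite strand. The lincRNA AC025259.3 (chr12:52058459-52059503, minus strand) lies over the last part of NR4A1 and was given 0 to 11 counts in a library. Whether the counting used strand is not given in the sources used here, so reads of this lincRNA and of NR4A1 cannot be told apart in that part. Of the 31-base stretches of NR4A1's transcripts, 12.5% (947 of 7594) also occur in another gene in either orientation, and 724 of these 947 are in AC025259.3. For NR4A2 and NR4A3 the share was 0.195% and 0.127%.

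The start regions of the members were read from RefSeq (GRCh38.p14), as windows of 300 bases from 250 before to 50 after an annotated start. They are shown because CREB sites near the start are the textbook route by which these genes are switched on. The NR4A3 window is chr9:99821635-99821934 on the plus strand, and capitals mark each CRE core (TGACG on either strand), the short form of the cyclic AMP response element that CREB binds.
NR4A3: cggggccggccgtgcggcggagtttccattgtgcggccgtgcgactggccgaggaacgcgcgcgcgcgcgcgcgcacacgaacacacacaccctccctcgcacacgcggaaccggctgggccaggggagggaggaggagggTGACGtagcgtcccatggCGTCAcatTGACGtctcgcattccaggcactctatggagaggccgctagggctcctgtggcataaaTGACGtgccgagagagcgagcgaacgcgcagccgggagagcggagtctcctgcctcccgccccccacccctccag
The window held 4 CRE cores, at positions -109, -91, -83 and -25 with the start site as 0. At least 1 CRE core was found in 24.6% of the 35116 windows of the same length, and 4 or more in 0.313%. Those windows were not matched in base composition to the NR4A3 window, which was 69.7% G or C. For NR4A1, windows were given for 2 starts, chr12:52022582-52022881 and chr12:52037465-52037764, both on the plus strand.
NR4A1 first start: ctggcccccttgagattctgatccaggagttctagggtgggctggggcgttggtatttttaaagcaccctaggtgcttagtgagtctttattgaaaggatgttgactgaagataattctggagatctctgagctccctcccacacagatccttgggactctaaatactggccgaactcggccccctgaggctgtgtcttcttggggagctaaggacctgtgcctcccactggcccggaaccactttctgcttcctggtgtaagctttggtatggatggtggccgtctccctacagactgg
NR4A1 second start: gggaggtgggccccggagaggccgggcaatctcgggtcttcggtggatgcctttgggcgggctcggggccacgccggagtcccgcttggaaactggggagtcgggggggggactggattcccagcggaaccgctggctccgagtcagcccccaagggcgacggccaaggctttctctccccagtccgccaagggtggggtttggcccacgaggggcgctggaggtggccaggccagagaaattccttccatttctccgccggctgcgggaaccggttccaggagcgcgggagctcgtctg
Neither NR4A1 window held a CRE core, which says only that these letters are not in these windows. NR4A1 transcripts begin at 19 annotated positions, and counts per gene do not show which start was used. Transcripts NR4A1-201 and NR4A1-204 begin at chr12:52051402, outside both windows, so the windows do not allow a comparison with NR4A3. The full CRE (TGACGTCA, 1.85% of all windows, each of which also holds the CRE core on both strands), the NBRE (AAAGGTCA, 1.22%), the CArG box that serum response factor binds (1.29%) and the MEF2 site (0.572%) were searched on both strands as well, and none was found in the 3 windows. NR4A2 had no window among those used here.

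As a description of the values that chose them, the NR4A genes had the 3 highest fold changes among tested nuclear receptors, in the order NR4A3, NR4A1 and NR4A2. The 34 other tested nuclear receptors lay between -0.75 and 0.26 on the log2 scale, with 17 above and 17 below 0 and a median of -0.0060, where the median over all tested genes was -0.00044. In the edgeR quasi-likelihood fit none of the 34 was called higher at a Benjamini-Hochberg adjusted p under 0.05 and 1 was called lower, against backgrounds of 0.673% and 0.908% of all tested genes (1.58% in both directions). At an unadjusted p under 0.05, which 11.6% of all tested genes reached in either direction, 3 were higher and 4 lower, and DESeq2 and limma voom called none higher. The clock receptor NR1D1, named after its values were seen as the next in rank, had a log2FC of 0.26 and an adjusted p of 0.197 in edgeR. The other receptors with the most reads, the glucocorticoid receptor NR3C1 (log2FC 0.032) and the retinoid X receptor RXRA (-0.045), did not pass, with adjusted p-values in edgeR of 0.844 and 0.792.

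**Figure D2:**
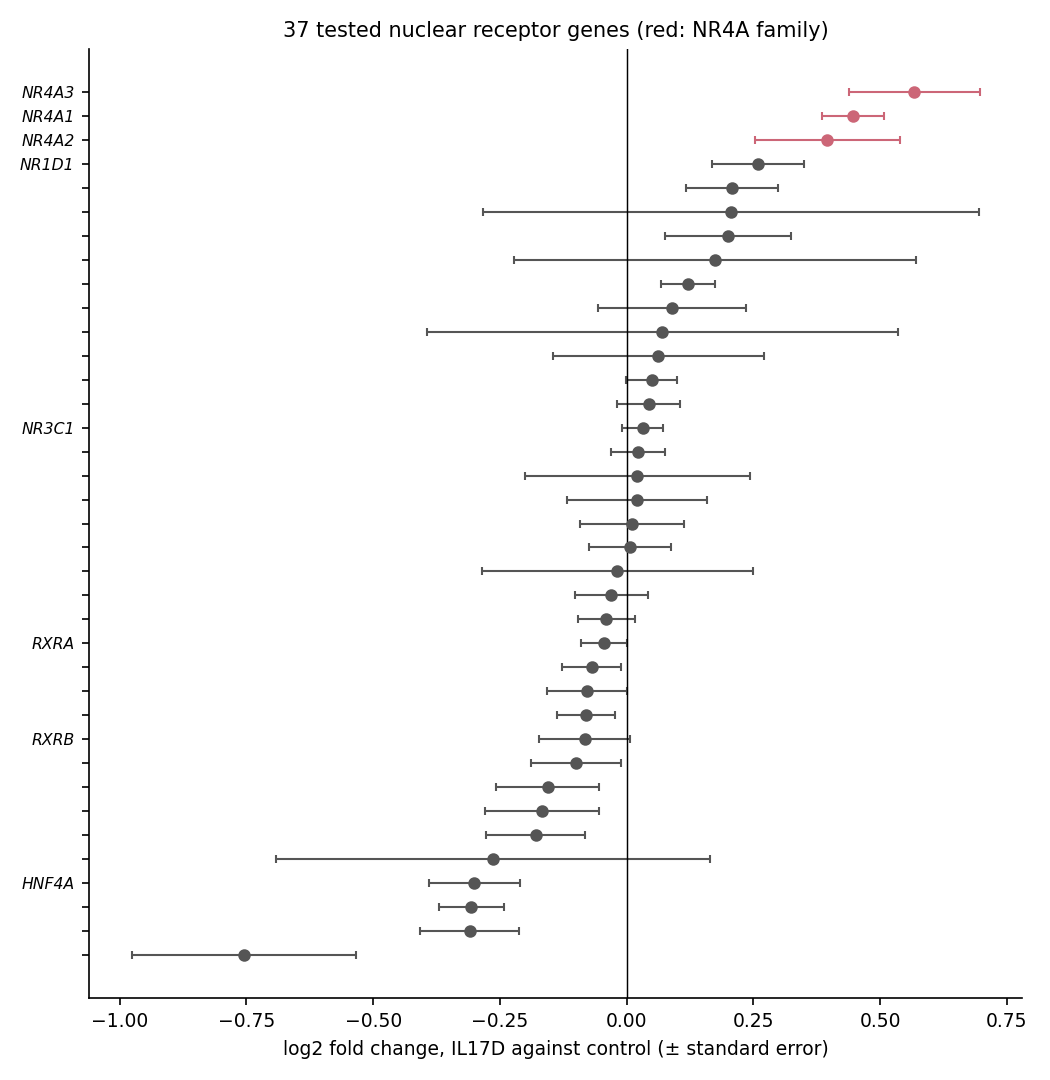
Log2 fold change of IL17D against control libraries (horizontal axis, 0 is no difference) for 37 tested nuclear receptor genes in rank order; bars are standard errors of the edgeR fit, and the genes given in the text are named on the vertical axis. The 3 NR4A genes (red) stand at 0.40 to 0.57, and the next gene, NR1D1, at 0.26.

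No partner of the receptors was called. In a list of 12 dimer partners and coregulators, 11 genes were tested. None passed the adjusted threshold in either direction in edgeR or by DESeq2 or limma voom. In edgeR 1.58% of all tested genes passed, and at that share a list this short can hold none, so nothing is read from the count. At an unadjusted p under 0.05, which 11.6% of all tested genes reached, the steroid receptor coactivator NCOA3 alone differed (log2FC 0.086, adjusted p = 0.286 in edgeR). RXRA, which pairs with NR4A1 and NR4A2, averaged 121 CPM (SD 4.92) in control and 117 CPM (SD 5.92) in IL17D cells. RXRB averaged 24.2 CPM (SD 1.70) and 22.9 CPM (SD 2.32), with an adjusted p of 0.803 in edgeR. RXRG had no count in any library, which allows up to 0.182 to 0.210 CPM (3 counts in a library, counting error only).

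The CREB arm upstream of the family showed no called change either. All 17 genes of the list were tested and none passed at an adjusted p under 0.05 in edgeR, DESeq2 or limma voom. In edgeR 1.58% of all tested genes passed, so a list of this size can hold none, and nothing is read from the count. Of the 17 genes, 9 lay above and 8 below 0, with a median log2FC of 0.018. The coactivators CRTC1, CRTC2 and CRTC3 had log2FC values of -0.080, 0.047 and 0.055, with adjusted p-values in edgeR of 0.855, 0.872 and 0.789. The regulatory subunit PRKAR1A of protein kinase A (0.037) and the acetyltransferase EP300 (-0.067), the genes with the most reads in the list, had adjusted p-values in edgeR of 0.765 and 0.653. SIK2 and SIK3, the kinases that restrain the CRTC proteins, both had a log2FC of 0.018. SIK1 was the 1 gene of the list at an unadjusted p under 0.05 in edgeR, which 11.6% of all tested genes reached. It had a log2FC of -1.08 and an adjusted p of 0.0828 in edgeR. That value rests on control replicate 3, in which SIK1 had 467 counts against 89 to 105 in the other 5 libraries, and without it the log2FC was 0.13. Of SIK1's 31-base stretches, 87.4% occur in other genes, among them its near copy SIK1B. SIK1B, named after its values were seen, held most of the pair's counts, with 1738 to 2057 in control and 2040 to 2290 in IL17D libraries, and passed on its own at 0.22 (adjusted p = 0.0339 in edgeR). The share of its stretches found in other genes was 96.3%, so how the reads were split between the pair is uncertain. The summed counts of SIK1 and SIK1B, an alternative chosen after seeing the data, gave 0.13 (standard error 0.056, adjusted p = 0.359 in edgeR).

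In the list of the MEF2 and SRF arm, 1 of 12 tested genes (8.33%) passed in edgeR, against 1.58% of all tested genes in either direction. CAMK4, a calcium- and calmodulin-dependent kinase of the CREB and MEF2 routes, rose from 2.45 CPM (SD 0.349) to 4.33 CPM (SD 0.284), with a log2FC of 0.82 (standard error 0.22, adjusted p = 0.042 in edgeR). Its call was lost when any 1 of the 6 libraries was left out, with a highest adjusted p of 0.169 in edgeR without control replicate 1. The SRF cofactor MRTFA and the transcription factor MEF2D, the list's genes with the most reads, had log2FC values of -0.12 and 0.12 and adjusted p-values in edgeR of 0.294 and 0.335. The list's median was 0.052, with 9 genes above and 3 below 0.

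Other immediate early genes were also higher in IL17D cells. Of 25 genes in the list, 22 were tested, all 22 had a positive log2FC and the median was 0.18. In edgeR 7 of the 22 (31.8%) passed at an adjusted p under 0.05, all higher in IL17D cells, where the background is 0.673%. Earlier results of these data had already shown immediate early genes higher, so this count is no independent evidence of the direction. The summed level of the listed genes was 1546 to 1570 CPM in control libraries and 1742 to 1745 CPM in IL17D libraries, without overlap.

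The called early genes covered transcription factors, a survival factor, a kinase, a secreted protein and a phosphatase. The growth regulator MYC rose from 190 CPM (SD 2.75) to 225 CPM (SD 2.58), with a log2FC of 0.24 and the smallest adjusted p of the list (6.3e-05 in edgeR). The kinase SGK1 rose from 32.5 CPM (SD 2.15) to 42.7 CPM (SD 1.87), a log2FC of 0.40 and an adjusted p of 0.00074 in edgeR. The antiapoptotic gene MCL1 (0.16), the AP-1 subunit FOSL1 (0.27), the matricellular protein gene CYR61 (0.21) and the zinc finger factor EGR1 (0.60) rose with adjusted p-values in edgeR of 0.0049, 0.011, 0.012 and 0.030. DUSP1, a phosphatase that switches off MAP kinases, was the seventh, with a log2FC of 0.15 and an adjusted p of 0.046 in edgeR. FOSB and FOS are named after their values were seen. FOSB had a log2FC of 0.43 and FOS of 0.33, and neither passed (adjusted p = 0.564 and 0.433 in edgeR). IER3, the list's gene with the most reads after MCL1, was at 0.072 (adjusted p = 0.505 in edgeR). The call count depended on single libraries. Without control replicate 2 it fell to 3 (MCL1, MYC and SGK1), and without IL17D replicate 1 to 4 (EGR1, MCL1, MYC and SGK1). DESeq2 called 5 of the early genes higher, without DUSP1 and EGR1, and limma voom 6, without EGR1. The EGR1 call was lost in 5 of 16 alternatives, by DESeq2 (adjusted p = 0.0722), by limma voom (adjusted p = 0.0565) and in edgeR without control replicate 2 (adjusted p = 0.064), control replicate 3 (adjusted p = 0.0893) or IL17D replicate 2 (adjusted p = 0.339). The DUSP1 call was lost in 8 of 16 alternatives.

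**Figure D3:**
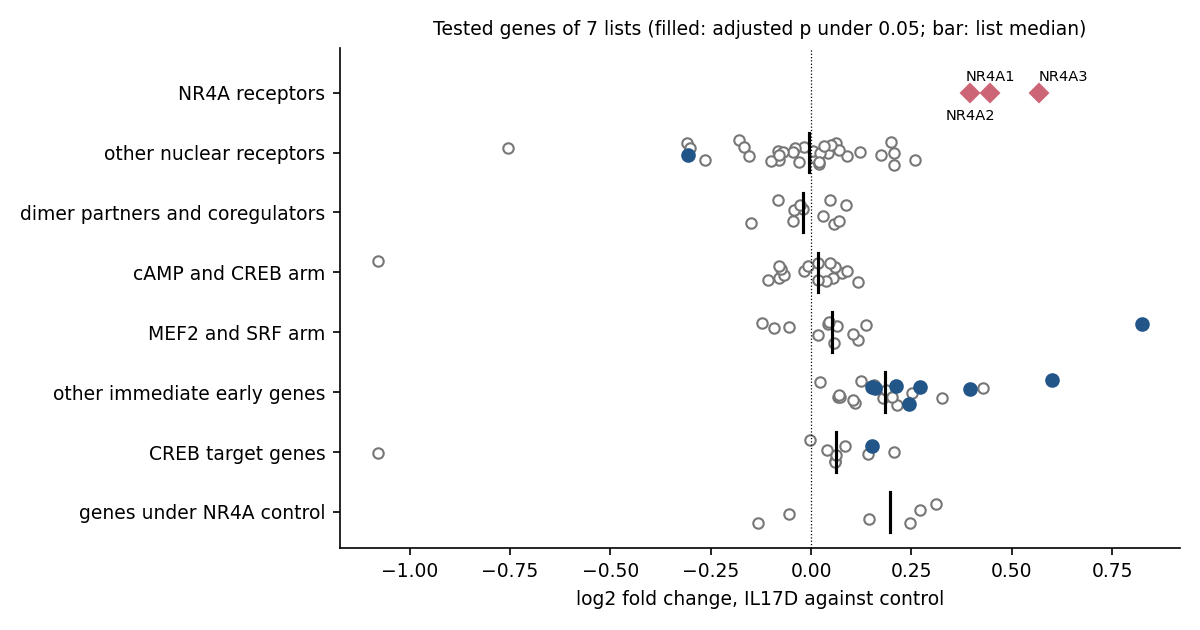
Log2 fold change of IL17D against control libraries (horizontal axis) for the tested genes of 7 lists and, in the top row, the 3 NR4A genes; filled circles passed an adjusted p under 0.05 in edgeR, open circles did not, and a vertical bar is the list median. All 22 tested immediate early genes lie above 0, while the other nuclear receptors and the CREB arm lie on both sides of 0.

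Genes that CREB is known to drive were measured as a readout beside the NR4A genes. Of 13 matched genes 10 were tested, with 8 above and 2 below 0 and a median log2FC of 0.062. SIK1 was 1 of the 2 below 0, and its log2FC of -1.08 rests on control replicate 3, as described above. DUSP1, also on the early gene list, was the 1 gene to pass in edgeR (10% of those tested, against 1.58% of all tested genes). PDE4D, a cyclic AMP phosphodiesterase and the list's gene with the most reads, had a log2FC of 0.060 (adjusted p = 0.591 in edgeR). INSL4 is a placental relaxin family gene known to follow CRTC activity in lung cancer cells that lack STK11. It averaged 30.3 CPM in both groups and was chosen for naming after its values were seen. CRTC activity was not tested, and nothing about it is read from this 1 gene. In the windows described for the family, a CRE core was found for 10 of the 12 CREB target genes with a window and for 12 of the 17 early genes with one, against 28.4% of the 27305 genes with a window. The first list holds genes already known as CREB targets, so its share is no independent evidence. The 27305 genes were not limited to tested genes. A gene counted if any of its windows held a core, and the lists were not matched for number of windows or base composition. The share was above 28.4% in all 7 lists, at 68.8% for the CREB arm, 50% for the MEF2 and SRF arm, 40% for the partners and coregulators, 35.9% for the other nuclear receptors and 33.3% for the genes under NR4A control.

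Genes that the NR4A receptors are known to control in other tissues were mostly too low to test. Of 17 listed genes, mainly of steroid synthesis, muscle metabolism and dopamine neurons, 6 passed the filter on low counts. None of the 6 passed at an adjusted p under 0.05 in edgeR, DESeq2 or limma voom, where 1.58% of all tested genes passed in edgeR. At an unadjusted p under 0.05 in edgeR 2 of the 6 differed (11.6% of all tested genes did). The median log2FC of the 6 was 0.20, with 4 above and 2 below 0. Among the 4, UCP3, SLC2A4 and SLC18A2, named after their values were seen, averaged only 3.59, 1.42 and 1.21 CPM over all libraries. Their log2FC values had standard errors of 0.21, 0.34 and 0.39, so little is read from this median. SPP1, the secreted phosphoprotein osteopontin, averaged 265 CPM (SD 6.62) in control and 242 CPM (SD 11.1) in IL17D cells (log2FC -0.13, adjusted p = 0.0728 in edgeR), and the groups did not overlap. The EGF receptor ligand AREG was at -0.055 (adjusted p = 0.673 in edgeR). The muscle enolase ENO3 was at 0.25 without overlap between groups (adjusted p = 0.187 in edgeR) and is named here after its values were seen.

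The genes whose profiles lay nearest to those of the members were found by the root mean square difference between log2 CPM values, each gene centred on its mean over the 6 libraries, among 11168 other tested genes with a mean of at least 5 CPM. Nearest to NR4A1 were TFPI2, a protease inhibitor gene, at 0.036, NEFL, a neurofilament gene, at 0.037, and FAM83A at 0.044, where the median over all compared genes was 0.24. Nearest to NR4A3 were AC102953.2 at 0.080, STC1, the hormone stanniocalcin, at 0.082 and the glucose transporter gene SLC2A3 at 0.091. These 6 genes all passed an adjusted p under 0.05 in edgeR and were higher in IL17D cells without overlap. They were picked for that profile, so this adds nothing about them. Nearest to NR4A2 were STARD13 at 0.059, TMBIM4 at 0.086 and TMEM150A at 0.098, none of which passed (adjusted p-values of 0.169, 0.371 and 0.495 in edgeR). Within the family, NR4A1 ranked 10 among the genes nearest to NR4A3, at 0.12, while NR4A2 ranked 179, at 0.20. From the side of NR4A1, NR4A3 ranked 98 and NR4A2 ranked 2535 of 11168, the latter at 0.205 where the median was 0.237. From the side of NR4A2, NR4A3 ranked 298 and NR4A1 ranked 416.

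**Figure D4:**
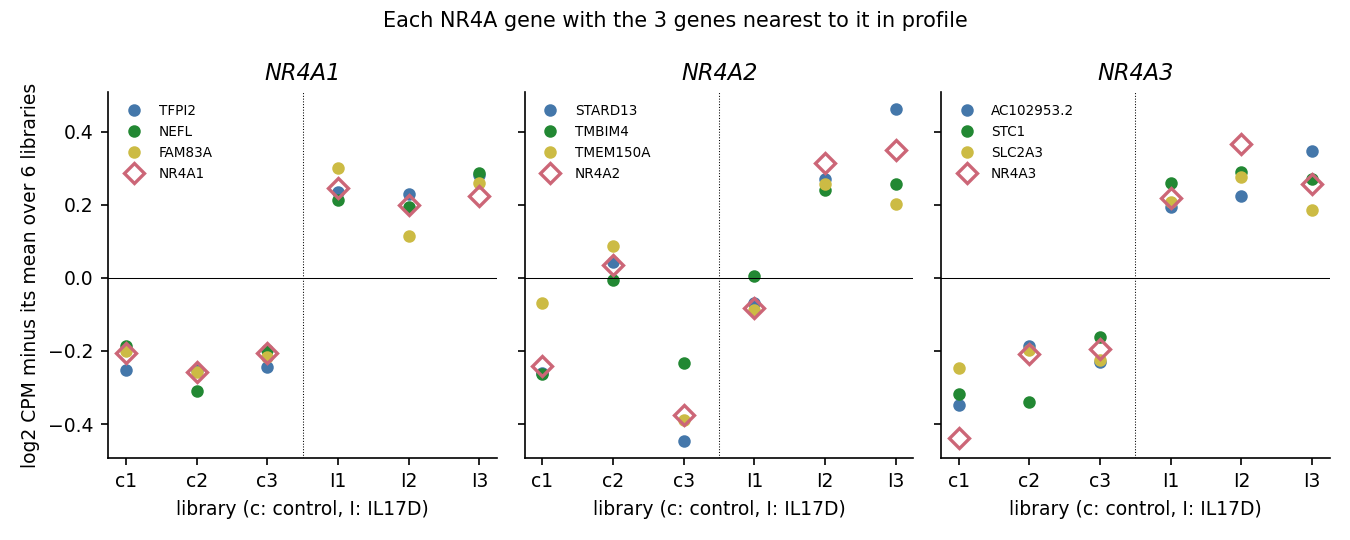
Log2 CPM minus its mean over 6 libraries (vertical axis) for each NR4A gene (open red diamonds) and the 3 genes nearest to it in profile, by library (c1 to c3 control, I1 to I3 IL17D). For NR4A1 and NR4A3 all control values lie below 0 and all IL17D values above, while NR4A2 has a control value above and an IL17D value below 0.

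The fold changes of the members kept their sign under all 16 alternative settings. These comprised other scalings, tools and filters, the replicate number as a block, and each library left out. Among the scalings, DESeq2 size factors and edgeR's RLE factors gave the same values. NR4A1 ranged from 0.43 to 0.46, NR4A2 from 0.31 without control replicate 3 to 0.53 without IL17D replicate 1, and NR4A3 from 0.49 to 0.61. The groups of NR4A1 and NR4A3 did not overlap, so leaving out a library could not change their sign, and nothing is read from it.

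**Figure D5:**
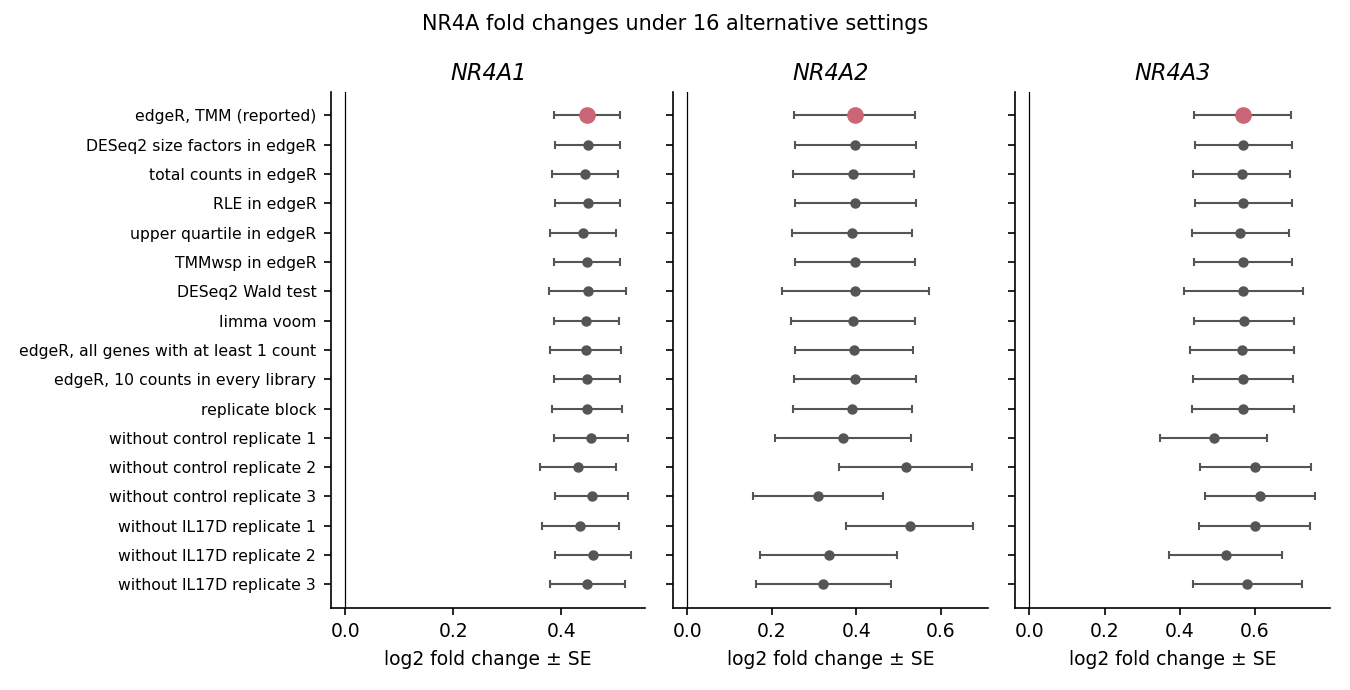
Log2 fold change with its standard error (horizontal axis) of each NR4A gene in the reported edgeR fit (red) and in 16 alternative settings (grey). All values lie above 0, and NR4A2 moved most when a library was left out, from 0.31 to 0.53.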

How the data were processed

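RNA-seq of 6 libraries was analysed, 3 of IL17D-overexpressing and 3 of empty vector A549 cells, grouped by their titles. The authors deposited raw read counts per gene, without normalization, together with a length in bases for each gene, and 0 per-sample columns were left out. The submitters' processing notes list Bowtie2 and hg38; the counting tool and its settings are not given in the sources used here. Gene coordinates were those of GENCODE release 29 for 58724 of the 58735 genes.

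Genes were filtered by edgeR's filterByExpr (defaults, a minimum count of 10 and a total of 15), scaled by TMM and fitted with glmQLFit and glmQLFTest without covariates (edgeR 4.0.16 in R 4.3.3), with two-sided p-values adjusted by Benjamini-Hochberg over 15754 genes and called under 0.05. CPM came from edgeR, RPKM from CPM and the table's gene length, and log2 CPM from a prior count of 2. Library totals of 14319398 to 16521021 counts set the precision. The scripts were tested on simulated data.

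The family, gene lists and tests were chosen with earlier results of these data known. Named genes are IL17D, the members, in each list up to 6 genes with the smallest p among those called and the 2 with the most reads, the 3 genes nearest to each member, and the RXR, CRTC and SIK genes; others are marked where they appear, and 2 genes that the rule names are not reported here. Of the CREB target list, 13 of 14 genes were matched. Alternatives used DESeq2 1.42.0, limma 3.58.1, other scalings and filters, a replicate block and each library left out. Promoter windows were taken from RefSeq (GRCh38.p14).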

Additional observations from a re-analysis of the deposited data

How the results depend on the processing

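The members' fold changes moved by less than the spread between replicates under all 16 alternatives. With the replicate number as a block they were 0.45, 0.39 and 0.57 on the log2 scale for NR4A1, NR4A2 and NR4A3. Without 1 library they ranged from 0.43 to 0.46, 0.31 to 0.53 and 0.49 to 0.61. Leaving out 1 of 3 libraries can hardly move a fold change by more than that spread, so nothing is read from those settings. The scalings shifted all genes by little. The median of all genes moved furthest with upper quartile factors, by -0.0065 in log2. NR4A2 was above NR4A3 in 3 libraries by CPM in place of 6 per kilobase. With a minimum of 20 CPM, 0 of the 3 genes nearest to NR4A2 were kept, 3 for NR4A1 and 2 for NR4A3.

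Counts of called list genes are small and turned on single genes; the cause was not tested. DUSP1, the 1 CREB target called higher, was lost with total counts, upper quartile factors and DESeq2 (0 called in each), and CAMK4, the 1 MEF2 and SRF gene called higher, with DESeq2 and limma voom (0 in each). Testing all genes with at least 1 count, or adding the replicate block, called 2 other nuclear receptors lower (among them HNF4A, named after its values were seen) and SIK1 lower, which makes 1 in the CREB arm and 1 among the CREB targets. Testing all genes with at least 1 count also called 1 NR4A-controlled gene lower, SPP1. Summing SIK1 with SIK1B turned SIK1's log2 fold change from -1.08 to 0.13. The block changed no other list count. The deviations of same-numbered libraries from their group means had correlations of 0.00997, -0.0119 and -0.0151. With 3 libraries per group, and counting error within the deviations, values near 0 cannot decide whether same-numbered libraries were handled together. The labels do not state it.

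Without 1 library, early genes called higher numbered 3 to 7, other nuclear receptors called lower 1 to 2, MEF2 and SRF genes 0 to 0 higher and 0 to 1 lower, CREB targets 0 to 1 higher and 0 to 1 lower, CREB arm genes 0 to 1 lower and NR4A-controlled genes 0 to 1 lower. Over all genes, 70 to 133 were called higher and 77 to 137 lower, against 106 and 143 with all libraries. The counts moved by over 1.5 times without IL17D replicate 3 (70 higher, 77 lower), IL17D replicate 1 (82 lower) and control replicate 2 (95 lower). SIK1 was called lower without control replicate 1 or 2, HNF4A and MRTFA without control replicate 3, and SPP1 without control replicate 3 or IL17D replicate 3. DUSP1 stayed called only without control replicate 3 among the 6. With 109 to 194 counts in a library, NR4A2 and NR4A3 carry a counting error of 7.18% to 9.58%, which limits the precision of their fold changes.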

Other observations

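Protein-coding neighbours of the NR4A genes, picked by position after the values were seen, did not pass in edgeR. ATG101 (chr12:52069246-52077494), which follows NR4A1, averaged 28.6 CPM in control and 31.8 CPM in IL17D cells (log2 fold change 0.15, adjusted p = 0.485 in edgeR). GPD2 (chr2:156435290-156613735), next to NR4A2, averaged 67.2 and 60.3 CPM without overlap between groups (log2 fold change -0.16, adjusted p = 0.211 in edgeR). STX17 (chr9:99906633-99970341), next to NR4A3, averaged 21.6 and 23.7 CPM (log2 fold change 0.13, adjusted p = 0.628 in edgeR). GRASP, on the other side of NR4A1, had 1 to 10 counts in a library.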
